A study of Arabidopsis thaliana with 9 samples.

Results

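The genes described here are 8 auxin signalling genes of Arabidopsis thaliana whose messenger RNAs are known targets of microRNAs: the auxin response factors ARF6, ARF8, ARF10, ARF16 and ARF17 and the auxin receptors TIR1, AFB2 and AFB3. They were taken by locus code, a rule that uses no measured value. All 8 are among the 22903 locus codes with a value in the deposited tables. Messenger RNA was sequenced from whole 14-day-old seedlings of the mutant aar2-1, of the mutant aar2-2 and of the wild type, 3 libraries per genotype, labelled as biological replicates. All seedlings were grown on MS medium of reduced strength with 16 h of light and 8 h of dark per day, and the genotypes differ by the aar2 allele alone as far as the labels say. The lesion in each allele, and whether a replicate is 1 plant or a pool, are not given in the sources used here. AAR2 is named after a yeast protein that acts in the assembly of the U5 particle of the spliceosome.

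Auxin is perceived by F-box proteins of the TIR1/AFB family. With auxin bound, they mark Aux/IAA repressor proteins for degradation, which frees the auxin response factors (ARFs) to act on the promoters of auxin-responsive genes. ARF6 and ARF8 are activators with roles in stem elongation, adventitious rooting and flower maturation, whereas ARF10, ARF16 and ARF17 are counted among the repressor ARFs. In plants, miR167 directs cleavage of ARF6 and ARF8 messenger RNA, miR160 that of ARF10, ARF16 and ARF17, and miR393 that of TIR1, AFB2 and AFB3.

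The mature microRNAs of these families are shown to allow each target site to be read against its partner. RefSeq annotates 9 precursor loci on the TAIR10.1 assembly, 3 for miR160, 4 for miR167 and 2 for miR393. Sequences run 5′ to 3′, and capitals mark the seed, bases 2 to 8.
miR160a: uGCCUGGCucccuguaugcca
miR167a: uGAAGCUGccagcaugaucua
miR167c: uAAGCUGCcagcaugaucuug
miR167d: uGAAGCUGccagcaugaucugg
miR393a: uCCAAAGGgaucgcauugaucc
The loci of miR160b and miR160c give the same mature sequence as miR160a, miR167b the same as miR167a, and miR393b the same as miR393a. The miR160 and miR393 families each have 1 seed, whereas miR167 has 2, because the shared stretch lies 1 base closer to the 5′ end in miR167c. None of the 9 precursor loci is listed in the tables used here, so the microRNAs themselves have no value in this comparison.

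The best match to the first 21 bases of miR160a, miR167a or miR393a in the longest messenger RNA of each gene is printed as RNA, 5′ to 3′, on the gene's strand. Capitals mark the bases that do not form a Watson-Crick pair with the microRNA, so lower-case stretches show what the genes of a family share.
ARF6: GagaucaGgcuggcagcuuGU
ARF8: uagaucaGgcuggcagcuuGU
ARF10: AggAauacagggagccaggca
ARF16: GggUUuacagggagccaggca
ARF17: uggcauGcagggagccaggca
TIR1: AGAcaaugcgaucccuuugga
AFB2: AaAcaaugcgaucccuuugga
AFB3: AaAcaaugcgaucccuuugga
AFB1: AGAcCaugcgaucccuuugga
The sites of AFB2 and AFB3 are identical. TIR1 departs from them at 1 base, and AFB1, a receptor that is not among the 8 genes, departs from the TIR1 site at 1 further base. The ARF6 and ARF8 sites also differ from each other at 1 base.

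All 8 sites lay within coding sequence and within 1 exon. In TAIR10.1 coordinates, the ARF6 site is at chr1:10686478-10686498 on the minus strand, in exon 13 of 14, and the ARF8 site at chr5:14633841-14633861 on the plus strand, also in exon 13 of 14. The ARF10 site is at chr2:12115741-12115761 on the plus strand, in exon 2 of 4, and the ARF16 site at chr4:14704141-14704161 on the minus strand, in exon 3 of 4. The ARF17 site is at chr1:29274189-29274209 on the plus strand, in exon 2 of 2. Among the receptors, the TIR1 site is at chr3:23273727-23273747 on the minus strand, in exon 3 of 3. The AFB2 site is at chr3:9870238-9870258 on the plus strand, in exon 3 of 3, the AFB3 site at chr1:4369085-4369105 on the minus strand, in exon 4 of 4, and the AFB1 site at chr4:1405341-1405361 on the minus strand. The sites thus sit in the last exon of the 3 receptors and of ARF17, and in the last but one exon of ARF6, ARF8 and ARF16.

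Bases without a Watson-Crick pair, called unpaired here, include G:U pairs and numbered from 1 (ARF17) to 4 (ARF6). The 1 such base of ARF17 was a G:U pair, as was 1 of 3 in ARF16, 1 of 3 in TIR1 and 1 of 4 in AFB1. None of the 8 sites had an unpaired base opposite microRNA positions 10 and 11, between which plant microRNAs direct cleavage. The 6 targets of miR160 and miR393 were paired at every seed base, whereas ARF6 and ARF8 each had 1 unpaired seed base against miR167a. The miR167c seed, shifted by 1 base, was not scanned, and its full complement can be read in both printed sites. The 10 other ARFs examined here, which are not all the remaining ARFs, had no match with fewer than 6 unpaired bases. Neither had AFB4 and AFB5, and AFB1 had 4. Over the longest mRNA of 31464 annotated genes, a window with at most 4 unpaired bases to miR160a was found in 3 genes (0.00953%), which are ARF10, ARF16 and ARF17. For miR167a the count was 7 genes (0.0222%), ARF6 and ARF8 among them, and for miR393a 9 genes (0.0286%), TIR1, AFB2 and AFB3 among them. A match describes the letters and does not show cleavage in these seedlings.

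The tables held 29163704 to 31304548 reads counted over genes per library in aar2-1 and 32392645 to 35266334 in aar2-2, against 24471217 to 27715504 in wild type. No wild-type library was as deep as any mutant library, so depth and genotype cannot be told apart. The AAR2 transcript (AT1G66510) averaged 6.04 ± 1.12 CPM (a gene’s reads relative to all reads counted in that library) in aar2-1, 4.58 ± 0.615 CPM in aar2-2 and 7.67 ± 0.584 CPM in wild type (SD, n = 3 each), with 1 aar2-1 library at 7.33 CPM, above the lowest wild-type library at 7.11 CPM. The tissue label was set against marker genes. Leaf markers summed to 35180 to 36816 CPM in aar2-1, 32594 to 38539 in aar2-2 and 33898 to 39662 in wild type, with all 3 detected in every library. In aar2-2, LHCB2.1 fell by 0.91 (limma adjusted p = 0.0150) and CAB1 by 0.52 (limma adjusted p = 0.0455), a call that CAB1 lost under 13 of 19 alternatives. In aar2-1 the fold changes were -0.61 and -0.27 (limma adjusted p = 0.0565 and 0.244), with all libraries below wild type for both genes. DESeq2 called LHCB2.1 in aar2-1 (adjusted p = 0.0115), and edgeR did not (adjusted p = 0.054). The third leaf marker, RBCS1A, lay above wild type in all mutant libraries, at 23200 ± 1240 CPM in aar2-1 and 24660 ± 1290 CPM in aar2-2, against 19910 ± 243 CPM in wild type (SD, n = 3 each). It was not called by limma (adjusted p = 0.261 in aar2-1 and 0.133 in aar2-2), whereas DESeq2 called it in both mutants (adjusted p = 0.00514 and 0.000836) and edgeR in aar2-2 (adjusted p = 0.0355). Root markers summed to 36.8 to 44.2, 42.8 to 44.8 and 44.0 to 46.5 CPM in the same order of genotypes. Of these 4 genes, SCR gave nearly all of the sum, at 36.1 to 45.7 CPM per library, and WER, COBL9 and EXPA7 were under 1 CPM in every library. The 4 root markers thus went both ways, and the amount of root RNA in seedlings described as whole cannot be read from them. The 4 flower markers summed to 1.33 to 2.94 CPM in aar2-1 and 1.31 to 1.84 CPM in aar2-2, against 0.531 to 0.722 CPM in wild type. The part of depth and of leaf and flower marker levels in the results was not tested.

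Among the 8 genes, only ARF6 passed the test, and it was lower in both mutants. The other 7 genes had adjusted p-values from 0.10 upward against wild type in either mutant. Significance here means an adjusted p-value under 0.05 in limma, fitted across the 18838 genes that averaged 1 CPM or more, as all 8 genes did. Fold changes are log2 values on the log2(CPM + 1) scale, mutant minus wild type. Of all tested genes, 25.1% were called in aar2-1, 11.5% higher and 13.6% lower, and 1 of the 8 was called, lower. In aar2-2, 21.5% of all tested genes were called, 12.1% higher and 9.40% lower, and again 1 of the 8 was called, lower. Genes called in both mutants in the same direction made up 13.6% of all tested genes, and 7.17% were lower in both, as ARF6 was. A single call among 8 genes is no more than the overall shares of 25.1% and 21.5%, and it is a result on ARF6, not on the group. The samples hold many cell types, so fewer cells of a type and less RNA per cell cannot be told apart.

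**Figure D1:**
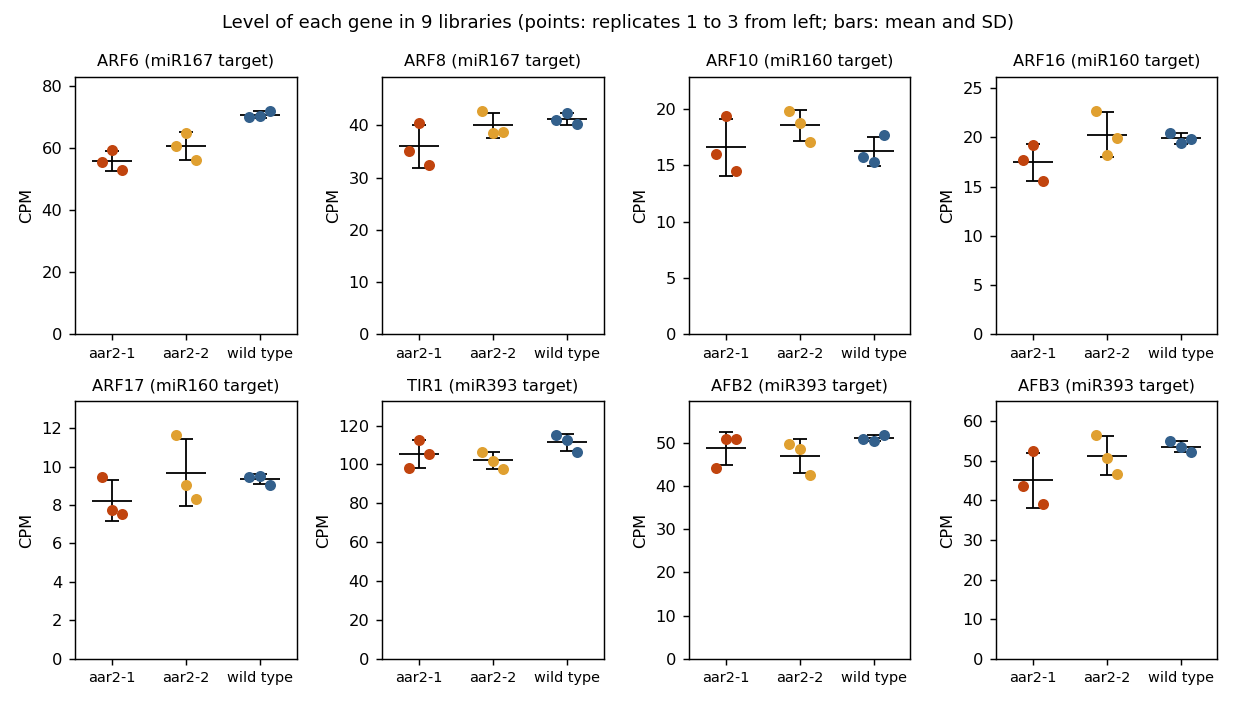
Level of each of the 8 genes in CPM (vertical axes from 0) in the 3 libraries of aar2-1, aar2-2 and wild type. Points are libraries, with replicates 1 to 3 from left to right, and bars give the mean and SD. For ARF6 all 6 mutant libraries (53.0 to 64.9 CPM) lie below the 3 wild-type libraries (70.0 to 72.0 CPM). The wild-type points lie close together in most panels, and the mutant points spread more widely.

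The activator ARF6 (AT1G30330), which acts with ARF8 in elongation and flower development, had 55.4, 59.3 and 53.0 CPM in aar2-1 and 60.7, 64.9 and 56.1 CPM in aar2-2, against 70.0, 70.1 and 72.0 CPM in wild type. No mutant library reached a wild-type library. The means were 55.9 ± 3.2 CPM in aar2-1, 60.6 ± 4.40 CPM in aar2-2 and 70.7 ± 1.10 CPM in wild type (SD, n = 3 each). In aar2-1 ARF6 fell by 0.33 (SE 0.07, limma adjusted p = 0.00787), with a 95% confidence interval from -0.49 to -0.18. In aar2-2 it fell by 0.22 (SE 0.07, limma adjusted p = 0.0431), with an interval from -0.37 to -0.07. The call in aar2-1 held under all 19 alternative ways of fitting the data, at adjusted p-values from 0.000434 to 0.0327. The call in aar2-2 did not: without any 1 of the 3 wild-type libraries the adjusted p-values were 0.107, 0.0882 and 0.111, and it was also lost without aar2-1 replicate 1 (0.0569), aar2-2 replicate 1 (0.0913) or aar2-2 replicate 3 (0.138), and in limma without a mean-variance trend (0.0644). Over these alternatives the fold change in aar2-2 stayed between -0.27 and -0.17. By edgeR and DESeq2 on the recovered reads the aar2-2 call stood, at adjusted p-values of 0.0193 and 0.00852.

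**Figure D2:**
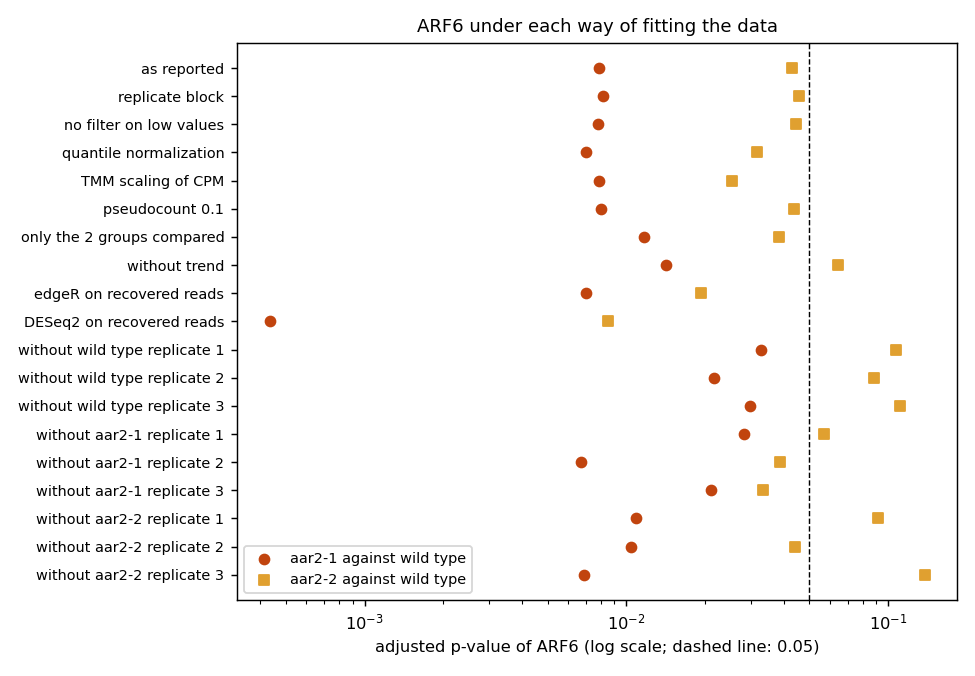
Adjusted p-value of ARF6 (horizontal log axis, dashed line at 0.05) as reported and under the alternative ways of fitting the data or leaving out 1 library (rows), for aar2-1 (circles) and aar2-2 (squares), each against wild type. The circles stay left of 0.05 in every row, the highest at 0.0327, whereas the squares lie on both sides, from 0.00852 to 0.138.

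ARF8 (AT5G37020), the closest relative of ARF6 and the second miR167 target, had 35.1, 40.5 and 32.4 CPM in aar2-1 and 42.8, 38.4 and 38.8 CPM in aar2-2, against 41.1, 42.4 and 40.2 CPM in wild type. The lowest values came from aar2-1 replicates 1 and 3, whereas aar2-1 replicate 2 lay among the wild-type libraries. Means were 36.0 ± 4.12, 40.0 ± 2.42 and 41.2 ± 1.10 CPM (SD, n = 3 each) in aar2-1, aar2-2 and wild type. The fold change was -0.20 (SE 0.08, limma adjusted p = 0.110) in aar2-1 and -0.04 (SE 0.08, limma adjusted p = 0.738) in aar2-2. Without aar2-1 replicate 2 the aar2-1 difference was -0.28 at an adjusted p-value of 0.0242, past the threshold. Summed per length of exon, ARF6 and ARF8 together gave 22.1 to 25.9 CPM per kb in aar2-1 and 24.6 to 26.9 in aar2-2, against 28.7 to 29.1 in wild type, with no overlap between mutant and wild-type libraries. ARF6 made up 56.4% to 59.1% of this sum in aar2-1, 55.6% to 59.9% in aar2-2 and 59.4% to 61.3% in wild type. ARF6 was already separated on its own, whereas ARF8 alone overlapped wild type in both mutants. The gap in the sum is therefore no separate result on the pair.

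None of the 3 miR160 targets passed the test in either mutant. ARF10 (AT2G28350), a repressor ARF with a role in root cap formation together with ARF16, had 16.0, 19.4 and 14.4 CPM in aar2-1 and 19.8, 18.7 and 17.1 CPM in aar2-2, against 15.7, 15.3 and 17.7 CPM in wild type. All groups overlapped. It was the gene with the highest fold change of the 8 in aar2-2, at 0.18 (SE 0.11, limma adjusted p = 0.255, 95% confidence interval -0.06 to 0.42), and in aar2-1 its fold change was 0.02 (SE 0.11, limma adjusted p = 0.893).

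ARF16 (AT4G30080) had 17.7, 19.2 and 15.5 CPM in aar2-1 and 22.7, 18.2 and 19.9 CPM in aar2-2, against 20.5, 19.4 and 19.8 CPM in wild type. All 3 aar2-1 libraries lay below the 3 wild-type libraries, while the aar2-2 libraries lay on both sides of them. The fold change was -0.18 (SE 0.10, limma adjusted p = 0.195) in aar2-1, and 0.02 (limma adjusted p = 0.903) in aar2-2, where its sign turned under another scaling. ARF17 (AT1G77850), which is known to influence GH3 genes and adventitious rooting, had the lowest level per length of the 8 genes. It had 9.45, 7.75 and 7.51 CPM in aar2-1 and 11.6, 9.07 and 8.34 CPM in aar2-2, against 9.48, 9.53 and 9.04 CPM in wild type, and the groups overlapped. Its fold change was -0.17 (SE 0.12, limma adjusted p = 0.332) in aar2-1 and 0.03 (limma adjusted p = 0.867) in aar2-2. The 3 miR160 targets summed to 13.7 to 16.9 CPM per kb in aar2-1 and 16.6 to 19.8 in aar2-2, against 16.2 to 17.0 in wild type, so the sums overlapped as well.

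Among the receptors, none of the 3 miR393 targets passed the test. TIR1 (AT3G62980), the founding member of the receptor family and the gene with the highest level per length of the 8, had 98.0, 112.7 and 105.4 CPM in aar2-1 and 106.4, 101.9 and 97.8 CPM in aar2-2, against 115.1, 112.7 and 106.6 CPM in wild type. The aar2-2 libraries lay below the wild-type libraries by a narrow margin, and the aar2-1 libraries overlapped them. The fold change was -0.08 (SE 0.07, limma adjusted p = 0.387) in aar2-1 and -0.13 (SE 0.07, limma adjusted p = 0.196) in aar2-2.

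AFB2 (AT3G26810), a close relative of TIR1, had 44.2, 51.0 and 51.0 CPM in aar2-1 and 49.7, 48.7 and 42.5 CPM in aar2-2, against 51.0, 50.4 and 51.8 CPM in wild type. As with TIR1, the aar2-2 libraries were all below wild type, and 2 of the 3 aar2-1 libraries were level with it. Fold changes were -0.07 (SE 0.08, limma adjusted p = 0.543) in aar2-1 and -0.12 (SE 0.08, limma adjusted p = 0.290) in aar2-2. AFB3 (AT1G12820), known for its induction by nitrate in roots, had 43.5, 52.5 and 39.0 CPM in aar2-1 and 56.5, 50.8 and 46.6 CPM in aar2-2, against 55.0, 53.4 and 52.2 CPM in wild type. Its spread in aar2-1, an SD of 6.90 CPM around 45.0 CPM, was wider than in wild type, where the SD was 1.37 CPM around 53.5 CPM.

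The AFB3 fold change was -0.26 (SE 0.11, limma adjusted p = 0.10) in aar2-1 and -0.07 (SE 0.11, limma adjusted p = 0.687) in aar2-2. Without aar2-1 replicate 2 it was -0.37 in aar2-1, at an adjusted p-value of 0.0165, past the threshold. AFB3 is also the one gene of the 8 whose exons overlap other annotated genes, 2 of them, on the opposite strand. Summed over these 2 genes the overlap was 31.4% of its exonic length, with any base shared by both counted for each. The overlapping gene with a value, AT1G12810, had 28.1 ± 1.5 CPM in aar2-1, 28.0 ± 2.22 CPM in aar2-2 and 29.4 ± 0.809 CPM in wild type (SD, n = 3 each). The sources used here do not say whether counting used strand, so reads from these genes may not be told apart.

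**Figure D3:**
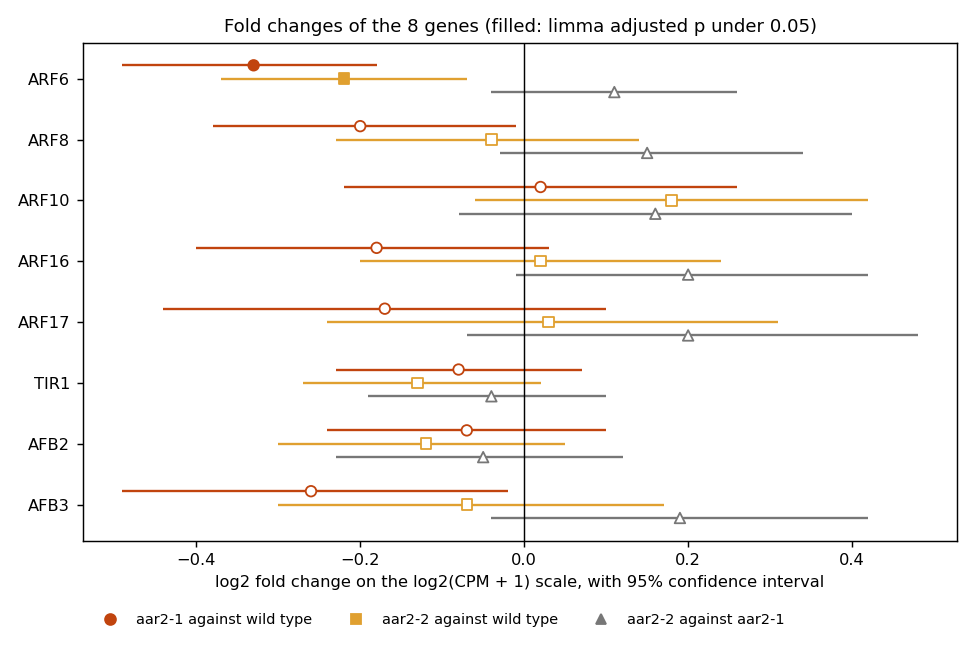
Log2 fold change of each of the 8 genes (rows) on the log2(CPM + 1) scale with its 95% confidence interval, for aar2-1 against wild type (circles), aar2-2 against wild type (squares) and aar2-2 against aar2-1 (triangles). Filled symbols passed the limma test at an adjusted p-value under 0.05, which ARF6 did against wild type in both mutants, and the intervals of all 8 genes between the mutants include 0.

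Taken as a group, the 8 genes had fold changes from -0.33 to 0.02 in aar2-1, with 7 below 0 and 1 above, and from -0.22 to 0.18 in aar2-2, with 5 below 0 and 3 above. Their median fold change in aar2-1 was -0.176, beside -0.004 over all tested genes, and in aar2-2 it was -0.055, beside 0.032. At an unadjusted p-value under 0.05, ARF6, ARF8 and AFB3 would pass in aar2-1 and ARF6 alone in aar2-2. Over all tested genes, 38.7% would pass in aar2-1 and 36.6% in aar2-2, so these counts do not set the 8 genes apart. All libraries of a mutant lay below all wild-type libraries for ARF6 and ARF16 in aar2-1, and for ARF6, TIR1 and AFB2 in aar2-2. Over all tested genes this held for 21.8% in aar2-1 and 19.2% in aar2-2. Both comparisons use the same wild-type libraries, so they are not independent of each other.

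The mutant libraries of a genotype were ordered much the same way from gene to gene. In aar2-1, replicate 2 was the highest for 6 of the 8 genes and replicate 3 the lowest for 6. In aar2-2, replicate 1 was the highest for 7 and replicate 3 the lowest for 6. Wild-type replicates 1, 2 and 3 were the highest for 3, 2 and 3 genes and the lowest for 1, 3 and 4. This order was not counted over all tested genes, so it cannot be called particular to the 8. The 8 genes were measured in the same libraries and do not give separate estimates of the effect of an allele.

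Between the mutants, none of the 8 genes differed at the threshold, by limma, edgeR or DESeq2, and none had an unadjusted limma p-value under 0.05. Across all tested genes, 4 genes (0.0212%) were called by limma, 3022 had an unadjusted p-value under 0.05, and edgeR called 4 and DESeq2 383. Fold changes of aar2-2 over aar2-1 ran from -0.05 to 0.20, with 6 above 0 and 2 below, and for each gene the libraries of the 2 mutants overlapped. The widest interval, that of ARF17, reached from -0.07 to 0.48, and that of ARF6 from -0.04 to 0.26. With 3 libraries each, the values are compatible with differences between the alleles anywhere inside these intervals.

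Levels of different genes were compared after division by exon length, the joined length of all annotated exons of a gene. By the annotated exons, TIR1 was the highest of the 8, at 39.8 ± 2.77 CPM per kb in aar2-1, 38.5 ± 1.62 in aar2-2 and 42.1 ± 1.65 in wild type (SD, n = 3 each). AFB3 followed with 20.1, 23.0 and 24 CPM per kb in the same genotypes, then AFB2 with 17.8, 17.2 and 18.7, and ARF6 with 13.8, 14.9 and 17.4. ARF8 came next with 10, 11.1 and 11.5, followed by ARF16 with 6.95, 8.06 and 7.91, ARF10 with 5.72, 6.38 and 5.59, and ARF17 with 2.78, 3.26 and 3.15. The receptors thus stood above the activator ARFs and these above the repressor ARFs, in one order in all 3 genotypes. The AFB3 level may include reads from the genes that overlap its exons, which leaves its place above AFB2 uncertain. Neighbours in this order had overlapping library ranges for AFB3 and AFB2 and for ARF16 and ARF10 in aar2-1, and for AFB2 and ARF6 in aar2-2, and no neighbours overlapped in wild type. Within the receptors, AFB3 made up 23.0% to 27.8% of the summed level in aar2-1, 28.4% to 30.2% in aar2-2 and 28.2% to 28.4% in wild type, and TIR1 50.2% to 52.5%, 48.0% to 50.4% and 48.8% to 50.1%.

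**Figure D4:**
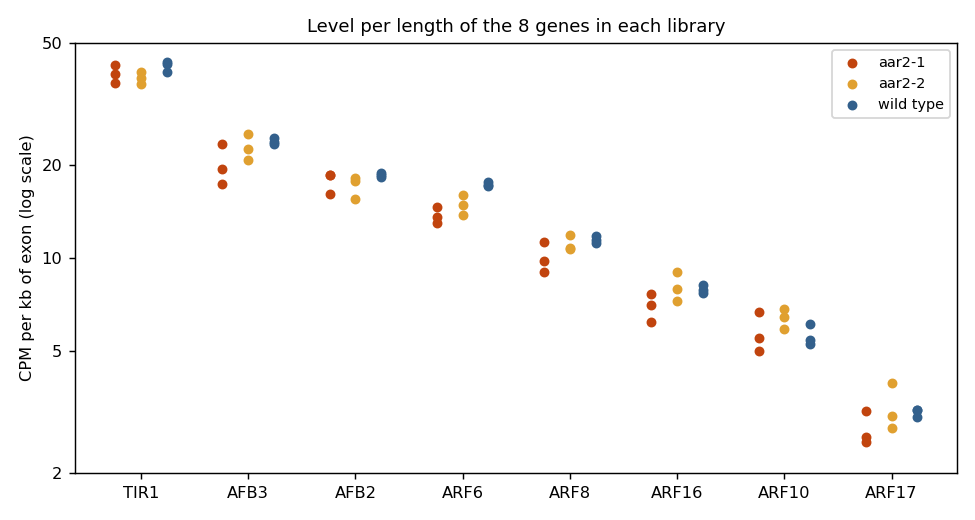
Level per length of the 8 genes, in CPM per kb of exon on a log axis, in each library of aar2-1, aar2-2 and wild type (points, left to right within a gene). The genes keep one order in the 3 genotypes, from TIR1 (42.1 CPM per kb in wild type) to ARF17 (3.15), and the ARF6 wild-type points lie above all ARF6 mutant points.

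The genes whose levels followed each of the 8 most closely were sought among all tested genes, by the root-mean-square difference of log2(CPM + 1) values centred on each gene's mean over the 9 libraries. The nearest gene to ARF6 was AT3G18800, at 0.034, which had a fold change of -0.38 in aar2-1 and one of -0.25 in aar2-2. For ARF8 it was AT3G10060 at 0.023, for ARF10 SUMM2 at 0.043, for ARF16 AT5G15220 at 0.041 and for ARF17 ARC3 at 0.054. For TIR1 it was AT3G49880 at 0.032, for AFB2 GLX2-5 at 0.033 and for AFB3 AT2G27950 at 0.042. No nearest gene was one of the 8. TIR1 and AFB2 were closest to each other among the 8, at 0.054, and ARF8 and AFB3 likewise at 0.054, whereas ARF6 was 0.109 from ARF8, its closest of the 8. The genes' own root-mean-square deviations were 0.080 for TIR1, 0.094 for AFB2, 0.121 for ARF8, 0.162 for AFB3 and 0.152 for ARF6. A small distance between genes that vary little need not mean that they move together. Since the libraries are shared by all genes, likeness here is a description of profiles.

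The genes around the 8 in the auxin pathway were read from lists of known members. Of the 10 other ARFs on the list used here, 2 rose and 2 fell in aar2-1 and 1 rose and 1 fell in aar2-2. Over all tested genes, 25.1% were called in aar2-1 and 21.5% in aar2-2. The median fold change of these 10 ARFs was 0.02 in aar2-1 and -0.04 in aar2-2. ARF5 (MONOPTEROS), an activator required for embryo axis and vascular patterning, averaged 33.95 ± 1.99 CPM in aar2-1 and 35.1 ± 0.101 CPM in aar2-2, against 25.3 ± 0.761 CPM in wild type (SD, n = 3 each). It rose by 0.41 (limma adjusted p = 0.00222) in aar2-1 and by 0.45 (limma adjusted p = 0.00203) in aar2-2, and these calls held under all 19 alternatives. ARF19, an activator of lateral root formation, rose by 0.38 in aar2-1 (limma adjusted p = 0.00834), to 20.01 ± 0.912 CPM against 15.2 ± 1.20 CPM in wild type, and its fold change in aar2-2 was 0.10 (limma adjusted p = 0.367). ARF11 fell by 0.52 in aar2-1 (limma adjusted p = 0.0123) and by 0.39 in aar2-2 (limma adjusted p = 0.0420), and ARF9 fell by 0.26 in aar2-1 (limma adjusted p = 0.0386). The ARF11 call was lost without wild-type replicate 1 in aar2-1, and without any 1 of the wild-type or aar2-2 libraries in aar2-2, where the adjusted p-value then reached up to 0.130, and also with no filter on low values (0.052). The ARF9 call was lost without any 1 of the wild-type libraries, aar2-1 replicate 3 or aar2-2 replicate 2, at adjusted p-values up to 0.120, and when only the 2 groups compared were fitted (0.0545).

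Of the 3 receptors that are not among the 8, AFB1 fell in both mutants and AFB4 and AFB5 did not pass the test. AFB1, the receptor known for rapid auxin responses in roots, averaged 22.6 ± 2.31 CPM in aar2-1 and 21.6 ± 0.530 CPM in aar2-2, against 27.2 ± 1.20 CPM in wild type (SD, n = 3 each). It fell by 0.27 (limma adjusted p = 0.0354) in aar2-1 and by 0.32 (limma adjusted p = 0.0199) in aar2-2. The aar2-1 call was lost without any 1 wild-type library, aar2-1 replicate 1 or 2 or aar2-2 replicate 2, in DESeq2, and when only the 2 groups compared were fitted (0.0673), at adjusted p-values up to 0.110. The aar2-2 call was lost without wild-type replicate 2 or 3 or aar2-2 replicate 2, at up to 0.066. Summed in the same way over the overlapping genes, other genes' exons overlap 20.4% of the AFB1 exons, 17.7% of those of AFB4 and none of those of AFB5. AFB4 averaged 36.7 ± 7.44, 36.2 ± 9.07 and 29.0 ± 3.91 CPM in aar2-1, aar2-2 and wild type, and AFB5 79.6 ± 10.9, 82.9 ± 0.949 and 91.7 ± 5.09 CPM. None of the 9 genes of the ubiquitin ligase to which the receptors bind, and of its regulators, was called in either mutant by limma, edgeR or DESeq2, and 1 had an unadjusted limma p-value under 0.05 in each mutant, beside 38.7% of all tested genes in aar2-1 and 36.6% in aar2-2.

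**Figure D5:**
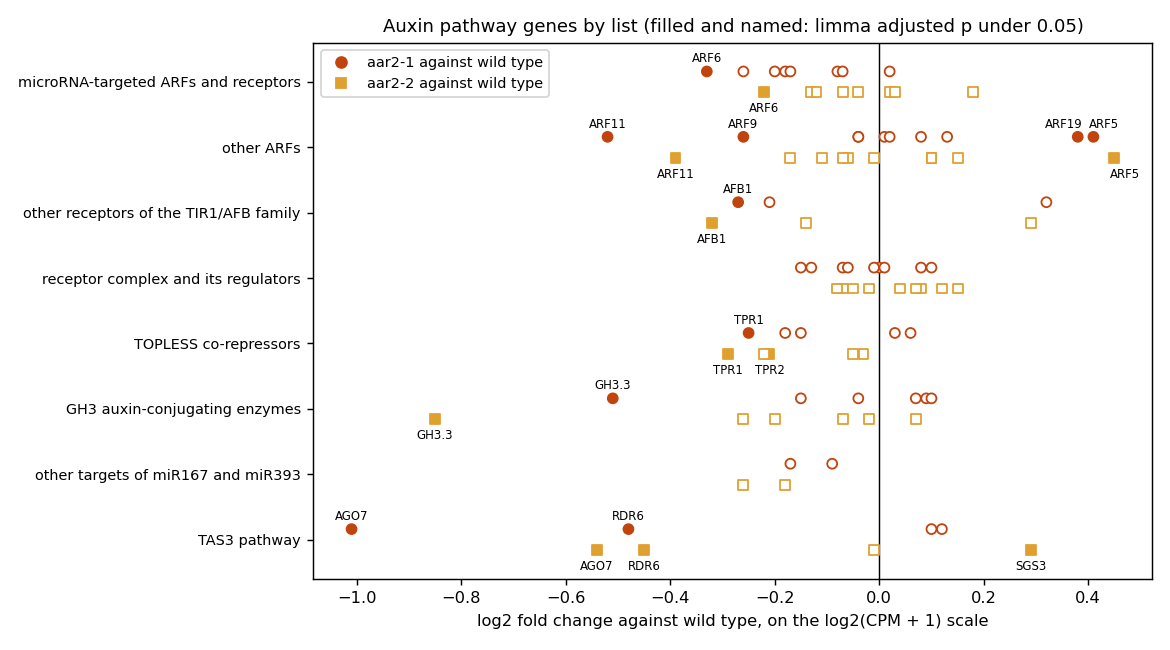
Log2 fold change against wild type on the log2(CPM + 1) scale for each tested gene of the auxin pathway lists (rows), in aar2-1 (circles) and aar2-2 (squares). Filled, named symbols passed the limma test at an adjusted p-value under 0.05. In the top row, ARF6 is the one filled gene in each mutant, and further down ARF5 lies to the right (0.41 and 0.45), and GH3.3 (-0.51 and -0.85) and AGO7 (-1.01 and -0.54) to the left.

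Of the 5 TOPLESS co-repressors, through which Aux/IAA proteins bound to ARFs silence genes, 1 fell in aar2-1 and 2 fell in aar2-2. The shares of all tested genes called lower, for this list and the GH3 genes below, were 13.6% in aar2-1 and 9.40% in aar2-2. TPR1 fell by 0.25 (limma adjusted p = 0.0196) in aar2-1 and by 0.29 (limma adjusted p = 0.0133) in aar2-2, and TPR2 fell by 0.21 in aar2-2 (limma adjusted p = 0.0314). The TPR1 calls were lost without wild-type replicate 1 in both mutants and without wild-type replicate 3 in aar2-1, at up to 0.0699, and the TPR2 call without any 1 wild-type or aar2-2 library, at up to 0.102, and without the trend (0.0511). In aar2-2, edgeR and DESeq2 each called 3 of the 5. Of the 6 GH3 genes tested, which encode enzymes that join auxin or other hormones to amino acids, GH3.3 fell in both mutants and the others did not pass. GH3.3 averaged 8.995 ± 1.48 CPM in aar2-1 and 6.92 ± 1.08 CPM in aar2-2, against 13.3 ± 2.54 CPM in wild type (SD, n = 3 each). It fell by 0.51 (limma adjusted p = 0.0420) in aar2-1 and by 0.85 (limma adjusted p = 0.00749) in aar2-2. The aar2-2 call held under all 19 alternatives, whereas the aar2-1 call was lost without wild-type replicate 1 or 3, aar2-1 replicate 1 or 2 or aar2-2 replicate 2, at up to 0.135, and when only the 2 groups compared were fitted (0.052). LBD16 and LBD18, targets of ARF7 and ARF19 in lateral root formation, were below 1 CPM on average and were not tested, and LBD29 is not listed in the tables used here.

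Further messenger RNAs with a place in microRNA control of auxin signalling were BHLH77, a miR393 target, and IAR3, a miR167 target that releases auxin from its conjugates. Neither was called by limma in either mutant, whereas edgeR and DESeq2 each called 1 of the 2 in aar2-2. BHLH77 had a fold change of -0.17 (limma adjusted p = 0.152) in aar2-1 and -0.26 (limma adjusted p = 0.0509) in aar2-2, and IAR3 -0.09 and -0.18 (limma adjusted p = 0.646 and 0.336). The best windows found were gGucaGAgcgaucccuuuggC for BHLH77, at chr3:8530587-8530607 on the minus strand with 4 unpaired bases, and GaUCCGauAcuggcagcuuca for IAR3, at chr1:19200652-19200672 on the plus strand with 6, where capitals again mark unpaired bases.

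ARF2, ARF3 and ARF4 are targets of small RNAs made from TAS3 transcripts by a separate route that needs AGO7, RDR6, SGS3 and DCL4. AGO7 fell by 1.01 (limma adjusted p = 0.00117) in aar2-1 and by 0.54 (limma adjusted p = 0.0185) in aar2-2, to 3.95 ± 0.509 and 5.88 ± 1.12 CPM, against 8.93 ± 0.665 CPM in wild type (SD, n = 3 each). RDR6 fell by 0.48 (limma adjusted p = 0.00273) in aar2-1 and by 0.45 (limma adjusted p = 0.00483) in aar2-2. SGS3 rose by 0.29 in aar2-2 (limma adjusted p = 0.0277), and its fold change in aar2-1 was 0.12 (limma adjusted p = 0.271). The AGO7 call in aar2-2 was lost without wild-type replicate 1 or aar2-2 replicate 2 or 3, at up to 0.0723, and the SGS3 call without wild-type replicate 1 or 3 or any 1 aar2-2 library, at up to 0.0873. The ARFs of this route were not called by limma, with fold changes of 0.08 for ARF2, -0.04 for ARF3 and -0.04 for ARF4 in aar2-1 and of -0.17, 0.10 and 0.15 in aar2-2. For ARF2 in aar2-2 the adjusted p-value was 0.065 by limma, but 0.0423 by edgeR and 0.0228 by DESeq2, both past the threshold.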

How the data were processed

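Per the labels' protocols, TRI Reagent was used for extraction and a NEBNext Ultra II kit for the messenger RNA libraries. The authors deposited 1 table per library of CPM values for 22903 locus codes. The unit was read from the values, which gave whole reads for 99.9956% to 100% of genes per library (within 0.1 read). The submitters' processing notes name TAIR10, featureCounts 1.64 and DESeq2; the aligner and strand setting are not given in the sources used here. Each of the 8 genes had 226 to 3508 reads per library, and the precision is limited by 3 libraries per genotype. Libraries were counted as replicates as labelled; within a genotype they differed beyond counting noise (chi-square per degree of freedom 3.92 to 33.9), which does not show that the RNA samples were independent.

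A count test had been planned for count tables. As values were CPM, limma 3.58.1 with trend in R 4.3.3 was run on log2(CPM + 1), for genes averaging 1 CPM or more, with the 9 libraries in 1 fit of 3 group means and Benjamini-Hochberg adjustment; this scale understates changes of low genes. The test was checked on simulated counts with changes larger than those of the 8 genes, so the check does not cover changes of their size. Alternatives were the replicate block, no filter, quantile and TMM scaling, a pseudocount of 0.1, only the 2 groups compared, no trend, a threshold of 0.01, edgeR 4.0.16 and DESeq2 1.42.0 on recovered reads, and leaving out each library. Genes, lists and tests were chosen with earlier results of these data known. Named were the 8 genes, up to 4 called genes per other list by adjusted p-value, whole lists of 3 genes or fewer, and the nearest profile of each gene. ARF2, ARF3, ARF4 and DCL4 were named after their values were seen, as were the genes of the marker lists. Sites, exons and lengths came from RefSeq's TAIR10.1 genome and annotation; its positions may differ from the annotation behind the values.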

Additional observations from a re-analysis of the deposited data

How the results depend on the processing

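Over 24 comparisons of the 8 genes and 19 alternatives, 435 of 456 values kept their direction and their side of the threshold, 8 (all ARF6 in aar2-2) lost the call, 2 (ARF8 and AFB3 in aar2-1, without aar2-1 replicate 2) gained one and 11 changed sign, none of these being called. The number called was 1 in each mutant and 1 in both. It became 0 in aar2-2 and 0 in both without the trend and at a threshold of 0.01. Leaving out 1 library gave 1 to 3 in aar2-1, 0 to 1 in aar2-2 and 0 to 1 in both, and between the mutants it stayed 0 under every alternative. ARF16 in aar2-2 turned to -0.004752 with quantile scaling, -0.004615 with TMM, -0.01259 in edgeR and -0.008651 in DESeq2. With 1 library left out, fold changes ranged as follows: ARF16 in aar2-2 -0.06122 to 0.0918, ARF10 in aar2-1 -0.08674 to 0.1133, ARF17 in aar2-2 -0.09364 to 0.1248, AFB3 in aar2-2 -0.1357 to 0.000362, and between the mutants TIR1 -0.09501 to 0.004623 and AFB2 -0.1189 to 0.01693. The cause was not tested. Leaving out a library also leaves fewer samples.

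Replicate numbers are shared by the genotypes, but deviations from the group means of same-numbered libraries correlated at -0.191 to 0.518, over 0.1 in 5 of 9 pairs, so the libraries were not treated as paired. The 3 pairs of replicates 3 were at 0.22, 0.263 and 0.518, and each correlated best with its own number, as did 4 of 9 in all; this is a hint from the data, not the design. With the replicate block, 1 of the 8 genes was called in aar2-1, 1 in aar2-2, 1 in both and 0 between the mutants. ARF6 in aar2-2 then had an adjusted p-value of 0.0457. Over all genes the block gave 4790, 3966 and 12 calls, against 4732, 4046 and 4 without it. At a threshold of 0.01, 1699 genes in aar2-1 and 1178 in aar2-2 were called. TMM scaling gave medians over all genes of 0.007 and 0.008, and medians of the 8 genes of -0.165 and -0.080.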

Other observations

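The flower markers AP1 and AP3, which specify sepals, petals and stamens, were at or near 0 in wild-type seedlings and had reads in every mutant library. AP1 had 0.580, 1.20 and 1.501 CPM in aar2-1 and 0.988, 0.610 and 0.737 CPM in aar2-2, against 0.123, 0.0361 and 0 CPM in wild type. AP3 had 0.171, 0.480 and 0.703 CPM in aar2-1 and 0.185, 0.233 and 0.369 CPM in aar2-2, against 0, 0 and 0.145 CPM in wild type. The flower genes AG and PI overlapped between the genotypes. All 4 were below the level required for testing. Few reads stood behind these values: AP3 had 5 to 22 per mutant library, against 0, 0 and 4 in the shallower wild-type libraries. AP1 had 17 to 47 per mutant library, against 3, 1 and 0 in wild type. Their part in the ARF6 and ARF8 values was not tested.

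Of 19 genes with a window of at most 4 unpaired bases to miR160a, miR167a or miR393a, 11 are not among the 8, and 8 of these 11 are listed in the tables.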
